A study of Mus musculus with 10 samples.

Results

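The step from mouse embryonic stem (ES) cells to FLK1+ hemangioblast (HB) cells was examined, the first step of an in vitro route to blood. Its members were the libraries labeled ES and HB, 4 of the 10 libraries of a series that covers 5 stages, with 2 replicates at each stage. ES libraries came from the HM-1 line of mouse ES cells, used for gene targeting, kept on gelatin in medium with serum and LIF and taken at day 0. HB libraries came from the same line after 3 d as floating embryoid bodies in serum medium without added LIF, from cells retained on a magnetic column by an antibody against FLK1, the protein of the Kdr gene. All cells descend from 1 line, and neither group received any other treatment. RNA was taken from an enriched nuclear fraction and depleted of rRNA, and the deposited values are counts of read pairs on the exons of each gene.

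ES cells hold a network of transcription factors (POU5F1, SOX2, NANOG) that keeps them pluripotent, and LIF acts through STAT3 to sustain it. As they differentiate they pass through states that resemble the epiblast and the primitive streak, where WNT, Nodal and BMP signals induce T and Eomes, and cells leave the epithelium by replacing E-cadherin with other cadherins. FLK1+ mesoderm arises from the streak and can form endothelium, blood, smooth muscle and cardiac cells, and the ETS factor ETV2 drives its hemato-vascular branch.

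The ES libraries held 58782055 and 36443697 counts on genes and the HB libraries 29055246 and 36045700. A count of 3, used as the detection floor, was 0.0532 to 0.0992 CPM (counts per 1000000 counts, scaled by TMM). Of 10189 genes with at least 10 CPM in ES, 2 differed by more than 2-fold between the ES replicates, against 26 of 9976 in HB. HM-1 cells are known to lack a working Hprt gene, and Hprt had 12 and 9 counts in ES and 25 and 15 in HB. A gene was called when its adjusted p-value was under 0.05 in edgeR's quasi-likelihood test and its change was at least 2-fold, and only such genes are said to have risen or fallen. Of 22596 genes tested, 2601 rose in HB (11.5%), 3906 fell (17.3%) and 28.8% were called in either direction, and these percentages are the background for every list given here. In all 6507 called genes the ES and HB libraries did not overlap, as they did not in 78.7% of all tested genes. Among the risen genes the median change was 2.13 on the log2 scale and 513 changed at least 16-fold, and among the fallen genes the median was 2.96 in size and 1322 fell at least 16-fold. Fallen genes were thus more numerous and changed by more than risen ones. The labels do not say how replicates were made, and the study describes the replicates of its RNA-seq as biologically independent.

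The 4 stage markers moved as their libraries were labeled. Kdr, the VEGF receptor used for sorting, stood at 2.43 and 2.7 CPM in ES and 957 and 1284 CPM in HB. The level of Kdr follows from the sort and is given as a description, with a log2 difference of 8.78 ± 0.39 (SE). Etv2 stood at 0.639 and 0.545 CPM in ES and 55.6 and 69.5 CPM in HB, and rose by 6.7 ± 0.35 (adjusted p = 7.9e-07). Hand1, a factor of lateral and extraembryonic mesoderm, stood at 1.6 and 1.81 CPM in ES and 105 and 137 CPM in HB, and rose by 6.16 ± 0.44 (adjusted p = 3.85e-06). Pou5f1, which encodes OCT4, stood at 549 and 520.1 CPM in ES and 62.8 and 52.9 CPM in HB. Its fall was -3.21 ± 0.82 on the log2 scale (adjusted p = 0.00977). The libraries of both stages were well apart for all 4 genes, but the call of Pou5f1 was lost without HB replicate 1 (log2 -3.31, adjusted p = 0.0638) and without HB replicate 2 (-3.09, adjusted p = 0.0809). The promoters of Kdr, Etv2 and Pou5f1 differ in their density of CpG, as shown by the stretch from 250 bases before to 50 bases after the start of each gene (RefSeq, GRCm38.p6), printed 5′ to 3′ on the gene's strand with every CG in capitals:
Kdr: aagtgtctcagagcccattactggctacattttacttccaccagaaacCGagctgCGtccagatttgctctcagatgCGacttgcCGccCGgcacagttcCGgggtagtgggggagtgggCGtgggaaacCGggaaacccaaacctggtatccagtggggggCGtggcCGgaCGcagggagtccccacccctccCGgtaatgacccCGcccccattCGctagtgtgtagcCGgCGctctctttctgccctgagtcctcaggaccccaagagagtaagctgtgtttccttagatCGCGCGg
Etv2: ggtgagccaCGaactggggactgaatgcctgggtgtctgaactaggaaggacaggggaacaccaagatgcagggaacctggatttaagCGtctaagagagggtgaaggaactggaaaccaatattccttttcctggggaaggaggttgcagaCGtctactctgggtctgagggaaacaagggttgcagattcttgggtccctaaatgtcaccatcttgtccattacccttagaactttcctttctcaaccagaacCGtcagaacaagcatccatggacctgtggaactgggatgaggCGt
Pou5f1: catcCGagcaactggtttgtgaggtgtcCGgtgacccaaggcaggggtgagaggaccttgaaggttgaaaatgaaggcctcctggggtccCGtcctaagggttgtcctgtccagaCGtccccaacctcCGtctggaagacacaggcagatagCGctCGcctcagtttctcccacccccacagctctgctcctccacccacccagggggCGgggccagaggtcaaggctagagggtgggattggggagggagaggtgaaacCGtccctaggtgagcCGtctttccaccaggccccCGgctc
The Kdr promoter (chr5:75978406-75978705, minus strand) holds 19 CG, that of Etv2 (chr7:30635803-30636102, minus strand) 5 and that of Pou5f1 (chr17:35505782-35506081, plus strand) 11. Over the 12250 of 15825 tested protein-coding genes with a promoter in the same table, the median was 20 CG per 300 bases. It was 19 in the 1517 promoters of risen genes and 14 in the 2180 promoters of fallen genes, and 18.8% of the latter held fewer than 5 CG, against 11.3% of risen and 10.5% of all promoters. These shares are descriptions of sequence and were not tested.

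Pluripotency genes fell as a group. Of 32 tested, 26 fell and 1 rose, with a median log2 change of -4.36 where the median of all tested genes was 0. Summed over the list, the level went from 9390 and 9290 CPM in the ES libraries to 2510 and 2670 CPM in HB. Among the core factors, Sox2 stood at 348 and 341 CPM in ES and 7.31 and 2.11 CPM in HB (log2 -6.21 ± 0.90, adjusted p = 0.000355). Nanog stood at 226 and 222 CPM in ES and 15.2 and 9.52 CPM in HB (log2 -4.18 ± 0.80, adjusted p = 0.00196). Both HB libraries were far under both ES libraries for each, although the HB replicates themselves also differed for Sox2. The naive factors Esrrb (393 to 6.97 mean CPM), Tfcp2l1 (385 to 4.39), Zfp42 (463 to 4.77) and Nr5a2 (63.2 to 0.931) fell to log2 values between -5.82 and -6.60, and Klf2 (log2 -3.51 ± 0.46) and Klf5 (-3.42 ± 0.16) fell less. Klf4 fell least of these, from 109 to 35.8 mean CPM (log2 -1.61 ± 0.36), and its call was lost without HB replicate 2 (log2 -1.35, adjusted p = 0.0598). The HB level was 0.255% of the ES level for Tcl1, a cofactor of AKT, 0.331% for Gdf3, a Nodal-related ligand, and 10.8% for Pou5f1, so that the genes of the list left ES levels to very different extents.

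Several members of the same list were not called. Sall4, a zinc finger partner of POU5F1, stood at 476 and 487 CPM in ES and 350.4 and 389.9 CPM in HB, and Lin28a, an RNA-binding protein that blocks let-7 maturation, at 375 and 364 CPM in ES and 311 and 344 CPM in HB. Neither was called (log2 -0.38 ± 0.17 and -0.17 ± 0.17), and HB held 76.8% and 88.8% of their ES levels. Trim71 (log2 -0.96 ± 0.17) and Tdgf1, the Nodal co-receptor (-1.4 ± 0.61), were also not called, although Trim71 was called without HB replicate 2 (log2 -1.02). Tdgf1 stood at 870.5 to 329 mean CPM, with 37.8% of its ES level left, and was called lower by limma-voom (log2 -1.41, adjusted p = 0.00381), without the filter on low counts (adjusted p = 4.32e-13) and with only the 4 ES and HB libraries (adjusted p = 2.62e-05). Its SE in the main fit includes the spread in later stages, where its mean was 4.97 CPM in HE1 and under 1 CPM in HE2 and HP. Tbx3, a naive factor in ES cells that is also expressed in mesoderm, went the other way, from 156 to 412 mean CPM (log2 1.4 ± 0.35), with the call lost without HB replicate 2 (log2 1.27, adjusted p = 0.0541). Genes of the formative epiblast showed no shared direction, with 4 of 17 higher, 5 lower and a median of -0.17. Lef1 (3.78 to 89.9 mean CPM) and Sox11 (54.2 to 215) rose, Foxd3 (31.6 to 0.746) and Pou3f1 (29.5 to 2.43) fell, and Otx2 (42 to 40.9) and Fgf5 (2.89 to 4.37) were not called. The call of Pou3f1 was lost without HB replicate 2 (log2 -3.24, adjusted p = 0.0587). Formative genes called lower numbered 3 without HB replicate 2.

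Genes of the primitive streak and nascent mesoderm rose. Of 38 tested, 29 rose and 4 fell (median 3.52), and among the 22 transcription factors 19 rose (median 4.17). Eomes, a T-box factor of the streak, stood at 5.85 and 5.48 CPM in ES and 546 and 630.4 CPM in HB (log2 6.7 ± 0.44, adjusted p = 2.59e-06). Mixl1, a homeobox factor of the streak, stood at 1.19 and 1.66 CPM in ES and 332 and 406 CPM in HB (8.04 ± 0.33, adjusted p = 3.57e-07). Mesp1, which marks the earliest cardiovascular mesoderm, stood at 0.142 and 0.115 CPM in ES and 74.7 and 78.4 CPM in HB (9.15 ± 0.37, adjusted p = 3.57e-07). All 3 were low in both ES libraries and rose in both HB libraries without overlap. T (brachyury) rose from 4.89 to 136 mean CPM, and the homeobox genes Evx1 (0.429 to 109) and Gsc (0.421 to 26.7) rose with it. Tbx6, a factor of paraxial fate, rose from 1.09 to 9.42, and Msgn1, of presomitic mesoderm, from 0.0498 to 1.26, so that both remained at low levels. Cdx1 (0.526 to 0.314) and Cdx4 (0.427 to 0.353), factors of posterior mesoderm, were not called, and Cdx2 rose at a low level (0.51 to 2.44 mean CPM; 2.2 ± 0.73, adjusted p = 0.0336). The call of Cdx2 was lost without ES replicate 2 (adjusted p = 0.192) and without HB replicate 1 (adjusted p = 0.192). Of the receptors of nascent mesoderm, Pdgfra stood at 2.13 and 2.12 CPM in ES and 193 and 196 CPM in HB (6.51 ± 0.31) and Aplnr, the receptor of apelin and ELABELA, at 0.497 and 0.402 CPM in ES and 130.1 and 149 CPM in HB (8.24 ± 0.76). The gene of its ligand ELABELA, Apela, fell from 29.7 to 0.637 mean CPM (-5.57 ± 0.69). Cer1, a secreted Nodal and BMP antagonist, had no count in ES and 2.83 mean CPM in HB, at least 40.6-fold higher against a floor of 3 counts in each ES library. Cer1 and Msgn1, low in every stage but HB, passed the filter on low counts through HB and had to be higher there.

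Lateral plate and cardiac genes rose in 20 of 30 tested cases and fell in 1 (median 3.08). Tbx5, low in every stage but HB, passed the filter on low counts through HB and had to be higher there. Gata4 stood at 4.5 and 4.19 CPM in ES and 199 and 229.5 CPM in HB (5.62 ± 0.42, adjusted p = 5.64e-06) and Gata6 at 0.426 and 0.488 CPM in ES and 174 and 177 CPM in HB (8.59 ± 0.40, adjusted p = 4.59e-07). These 2 GATA factors of heart and endoderm rose alongside Foxf1 (0.137 to 25.1 mean CPM), Tbx20 (8.42 to 120.3), Tbx2 (0.769 to 51.6), Msx1 (1.67 to 122) and Msx2 (1.58 to 69). Later cardiac factors rose but stayed low: Tbx5 (0.104 to 2.24 mean CPM), Isl1 (0.389 to 6.98) and Mef2c (0.184 to 9.98). Genes of the contractile apparatus such as Tnnt2 (0.39 to 1.74) and Actc1 (0.899 to 1.75) were not called. Tnnt2 was called higher without the filter on low counts (log2 2.08) and with only the 4 ES and HB libraries (2.09, adjusted p = 0.00677). Ttn, the giant sarcomeric protein, fell from 234 to 3.12 mean CPM (-6.25 ± 0.43), so that the summed cardiomyocyte list was lower in HB (28.2 and 30.1 CPM) than in ES (248 and 252). Of 10 tested cardiomyocyte markers 2 rose and 3 fell. The 1 lateral plate gene that fell was not called without ES replicate 1 or HB replicate 2, and only 1 cardiomyocyte marker rose without ES replicate 2 or HB replicate 1.

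Hemato-vascular genes rose in 39 of 50 tested cases and fell in 3 (median 3.70). Among 25 transcription factors 22 rose. Lmo2, the bridging subunit of the SCL complex, stood at 0.621 and 0.488 CPM in ES and 73.7 and 91.4 CPM in HB (7.18 ± 0.29, adjusted p = 3.57e-07). Fli1, an ETS factor of endothelium and blood, stood at 0.231 and 0.23 CPM in ES and 65.4 and 69.3 CPM in HB (8.17 ± 0.34, adjusted p = 3.85e-07). Sox7, an early endothelial SOXF factor, stood at 0.479 and 0.574 CPM in ES and 58.1 and 67.1 CPM in HB (6.91 ± 0.87, adjusted p = 0.000147). These 3 were under 1 CPM in both ES libraries and high in both HB libraries. Sox17 (0.235 to 13.5 mean CPM), Sox18 (1.14 to 23), Erg (0.119 to 14.2), Gata2 (4.21 to 73.7) and Ets1 (7.47 to 122) rose too. Among factors of committed blood, Spi1 (0.737 to 4.78; 2.65 ± 0.48) and Gata1 (0.608 to 2.58; 2.05 ± 0.41) rose, and Klf1 (0.482 to 0.445), Myb (19 to 17.1) and Hoxa9 (0.0717 to 0.339) were not called, although Hoxa9 was called without ES replicate 2 (adjusted p = 0.0433) and by limma-voom (adjusted p = 0.0405). The 3 falls became 1 without ES replicate 2 or HB replicate 1.

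Of 25 surface and signaling proteins of the same branch 17 rose and 3 fell. Cdh5 (VE-cadherin) stood at 0.816 and 0.516 CPM in ES and 109 and 87.6 CPM in HB (7.15 ± 0.52, adjusted p = 4.31e-06). Nrp1, a VEGF and semaphorin co-receptor, stood at 1.38 and 1.26 CPM in ES and 271 and 316 CPM in HB (7.78 ± 0.47, adjusted p = 1.41e-06). Itga2b, which encodes CD41, stood at 2.91 and 2.5 CPM in ES and 48 and 34.5 CPM in HB (3.92 ± 0.29, adjusted p = 5.39e-06). These rose, whereas Pecam1 (CD31), which ES cells also carry, fell and stood at 158 and 164 CPM in ES and 39.3 and 32.9 CPM in HB (-2.15 ± 0.23, adjusted p = 5.6e-05). Kit, the receptor used to sort the later stages, stood at 164 and 173 CPM in ES and 73.3 and 69.3 CPM in HB (-1.24 ± 0.34, adjusted p = 0.0133). The call of Kit was lost without ES replicate 2, HB replicate 1 or HB replicate 2 (adjusted p = 0.051, 0.0655 and 0.0831). Eng, a co-receptor (64.8 to 46.9 mean CPM), and Tek, a receptor of endothelium (30.2 to 59), were not called, although Tek was called with total counts (log2 1.05, adjusted p = 0.016). In bulk samples fewer cells of a type and less RNA per cell cannot be told apart, and this holds for every level given here.

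**Figure D1:**
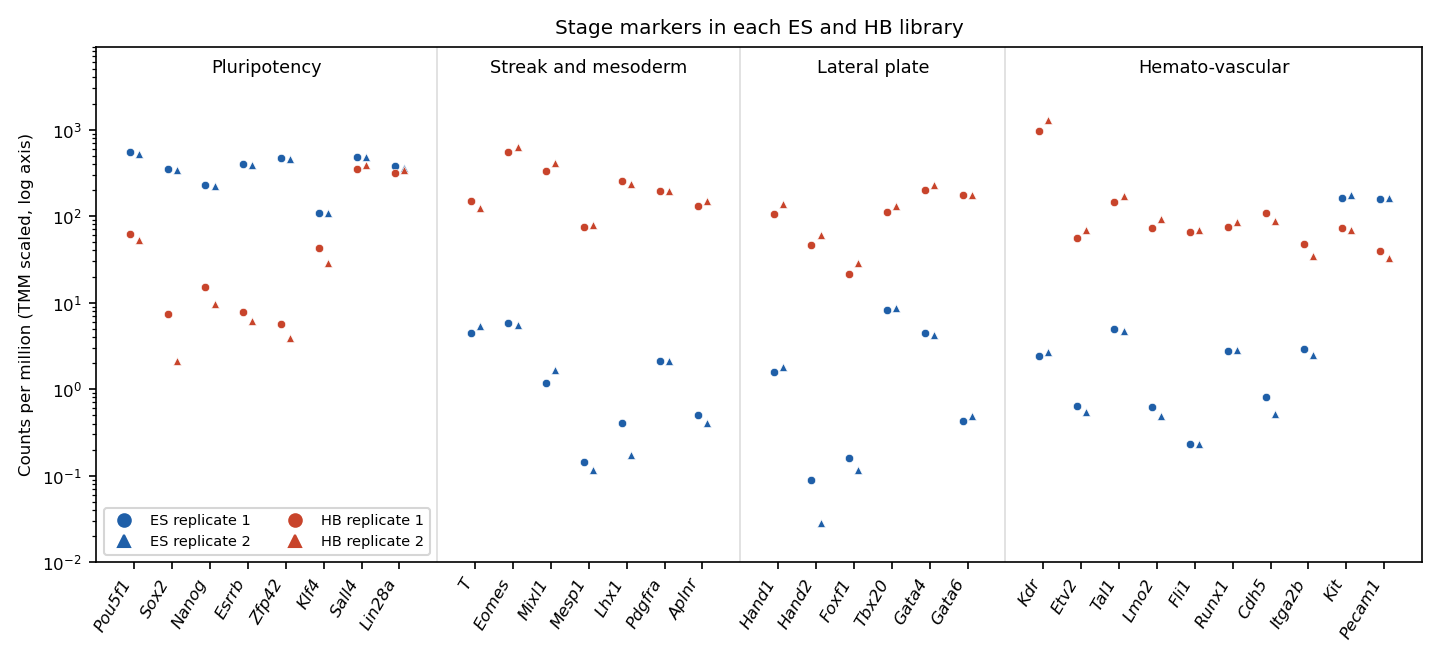
CPM of 31 genes in each ES (blue) and HB (red) library on a log axis, grouped by role, with circles for replicate 1 and triangles for replicate 2. Pluripotency genes sit lower in HB, with Sall4 and Lin28a, which were not called, nearest to their ES level, the mesoderm and hemato-vascular genes sit higher, and Kit and Pecam1 sit lower.

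BMP genes rose more often than they fell, with 18 of 41 tested members of BMP and TGF-beta signaling higher and 3 lower (median 0.86). The ligand gene Bmp2 stood at 0.798 and 1.06 CPM in ES and 110.4 and 134 CPM in HB (7.06 ± 0.23, adjusted p = 1.26e-07). Bmp4 stood at 31.3 and 31 CPM in ES and 89.7 and 140.5 CPM in HB (1.89 ± 0.27, adjusted p = 0.00035). Both ligand genes reached a similar level in HB from very different levels in ES. Bmp5 rose from 0.0321 to 15.6 mean CPM, whereas Bmp8b (6.73 to 0.306) and Inhba, an activin subunit (1.97 to 0.0919), fell. Among receptors and SMADs, Smad1 (22 to 234; 3.41 ± 0.18), Acvrl1 (3.01 to 22) and Tgfbr2 (3.28 to 18.4) rose, whereas Bmpr1a (141 to 167), Smad5 (50.4 to 79.4) and Smad4 (91.6 to 183) were not called. Smad4 was at the 2-fold limit (1.0 ± 0.14) and was called without ES replicate 2 (log2 1.03), without HB replicate 1 (1.07), with total counts (1.08), with library sizes without the top 20 genes (1.01), with no filter (1.02), over the genes of the authors' matrix (1.03) and with only the 4 ES and HB libraries (1.03). Of the pathway's targets and antagonists, Id3 (13.3 to 73.7), Smad6 (8.92 to 122), Bambi (12.2 to 81.5) and Bmper (0.35 to 56) rose, and Id1 (31.8 to 50.9), Id2 (13.4 to 7.72) and Smad7 (185 to 178) were not called.

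Nodal signaling split the other way, with 5 of 13 lower and 3 higher. Nodal stood at 130.1 and 132 CPM in ES and 16.1 and 10.7 CPM in HB (-3.29 ± 0.62, adjusted p = 0.00185). Its feedback inhibitors Lefty1 (218 to 2.4 mean CPM; -6.52 ± 0.44) and Lefty2 (462 to 48.7; -3.24 ± 0.32) fell as well, as did Pcsk6, a convertase of Nodal-related ligands (105 to 4.95). Cfc1, a Nodal co-receptor, rose (0.999 to 22.9; 4.51 ± 0.61), as did the nuclear partner Foxh1 (43.1 to 117). The receptor gene Acvr1b was not called (88.3 to 93).

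WNT genes moved in both directions, with 19 of 56 higher and 16 lower. Of 16 ligand genes 6 rose and 7 fell. Wnt5a stood at 3.62 and 3.53 CPM in ES and 129.5 and 148 CPM in HB (5.28 ± 0.46, adjusted p = 1.44e-05). Wnt3, which the streak requires, stood at 10.0 and 10.2 CPM in ES and 101 and 116 CPM in HB (3.42 ± 0.37, adjusted p = 5.32e-05). Wnt7b stood at 13.8 and 13.4 CPM in ES and 0.0992 and 0.0845 CPM in HB, or 3 counts in each HB library, and fell (adjusted p = 0.000268). Wnt2 (0.0861 to 13.8 mean CPM) and Wnt2b (0.58 to 15.5) rose with the first 2, and Wnt6 (6.07 to 0.467), Wnt7a (2.12 to 0.0165) and Wnt9a (6.92 to 0.693) fell. Of receptors and their agonists, Rspo3 (0.673 to 111; 7.41 ± 0.35) and its receptor gene Lgr5 (0.227 to 25.4; 6.82 ± 0.49) rose, whereas Fzd5 (214 to 21.5) and Lgr4 (252 to 99.6) fell and Fzd7 (272 to 435) and Lrp6 (276 to 204) were not called. Of 20 WNT target and antagonist genes 8 rose and 3 fell. Axin2 (19.3 to 129), Sp5 (3.75 to 58.6), Nkd1 (2.36 to 65.6) and the secreted antagonist genes Dkk1 (0.427 to 51.7) and Frzb (0.2 to 19.3) were among the risen. The secreted antagonist genes Sfrp1 (120.4 to 11.1), Sfrp2 (47 to 8.32) and Notum (29.2 to 1.86) fell.

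FGF genes rose and fell in equal number, 7 each of 31. Fgf4, the main FGF of ES cells and a POU5F1 and SOX2 target, stood at 287 and 281 CPM in ES and 3.67 and 1.77 CPM in HB (-6.72 ± 0.86, adjusted p = 0.000169). Fgf10 stood at 6.3 and 6.34 CPM in ES and 196 and 228 CPM in HB (5.07 ± 0.28, adjusted p = 1.02e-06). Fgf8, a ligand of the streak, stood at 1.47 and 1.58 CPM in ES and 37.5 and 31.2 CPM in HB (4.49 ± 0.36, adjusted p = 8.66e-06). Fgf3 rose (3.08 to 80.7 mean CPM) and Fgf17 fell (27.1 to 0.634), so that ligand genes moved in both directions. Of 8 FGF receptor genes 1 rose and 2 fell, and Fgfr1 was not called (224 to 216). Of 12 feedback and target genes 2 rose and 2 fell: Spry2 (111 to 46.5) and Etv5 (343 to 89.2) fell, Spred1 (99.2 to 204) and Flrt3 (7.61 to 26.3) rose, and Dusp6 (67.8 to 98.2) was not called. In the LIF pathway, 3 of 16 rose and 4 fell. The targets Pim1 (204 to 54.9) and Bcl3 (28.9 to 2.44) fell, Stat5a (2.86 to 25.5), Stat5b (14.9 to 100.3) and Jak2 (13.6 to 52.7) rose, and Lifr (271 to 303), Il6st (212 to 154) and Stat3 (93.1 to 124) were not called.

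VEGF and angiopoietin genes rose in 12 of 16 cases and fell in 1 (median 1.91), a count that includes Kdr itself. Vegfa stood at 29.4 and 31.2 CPM in ES and 112 and 106 CPM in HB (1.85 ± 0.36, adjusted p = 0.00213). Of the other VEGF receptors, Flt1 (9.67 to 132 mean CPM) and Flt4 (16.6 to 81.1) rose, as did Tie1 (2.32 to 47). In the Notch pathway 7 of 19 rose and 5 fell: the target genes Hey1 (2.54 to 65.3), Hey2 (0.602 to 11.4), Hes1 (19.6 to 91.7) and Nrarp (5.33 to 40.9) rose, whereas the ligand genes Jag1 (87.3 to 22.9) and Jag2 (129 to 22.2) and the nuclear effector Rbpj (238 to 85.5) fell, and Notch1 (328 to 188) was not called. Hedgehog genes fell in 5 of 11 cases, with Gli1, the pathway's transcriptional readout, at 67 and 64.8 CPM in ES and 5.65 and 4.0 CPM in HB (-3.77 ± 0.46, adjusted p = 0.000123). Gli2 (60.6 to 19.6) fell with it, and the co-receptor genes Gas1 (3.84 to 117) and Boc (5.3 to 21.1) rose. In the retinoic acid pathway Cyp26a1, which degrades retinoic acid, stood at 1.7 and 1.78 CPM in ES and 206 and 222 CPM in HB (6.94 ± 0.81, adjusted p = 8.61e-05). The receptor gene Rarg fell (109 to 23.5), and the synthetic enzyme gene Aldh1a2 was not called (1.26 to 1.96). The 1 fallen VEGF gene was not called when any library of the 4 was left out. Risen Notch genes numbered 4 without either ES replicate, and fallen Hedgehog genes 3 without ES replicate 2 or HB replicate 1.

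**Figure D2:**
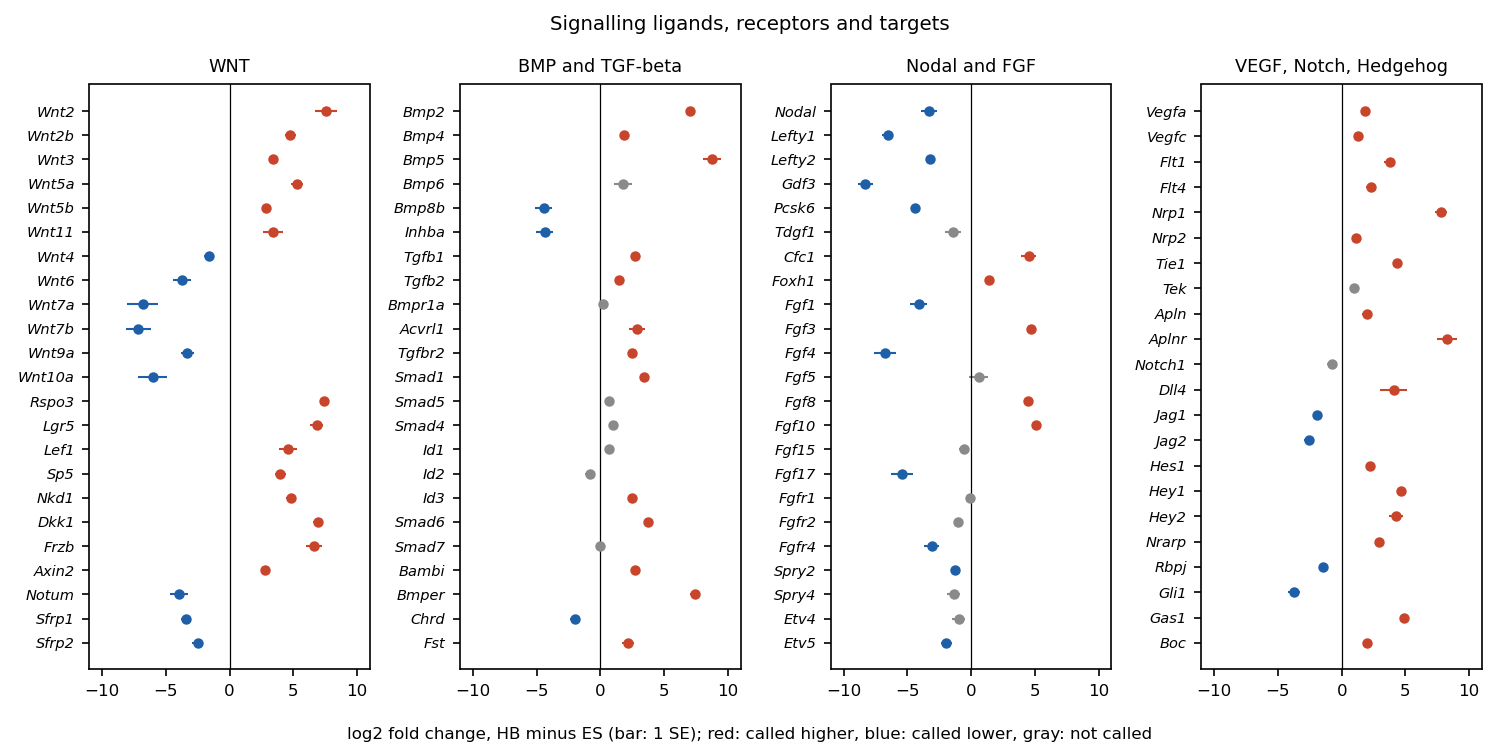
Log2 fold change of HB minus ES for 91 ligand, receptor and target genes, with bars of 1 SE, in red where called higher, blue where called lower and gray where not called. Within the WNT, FGF and Notch families some genes lie far to the right and others far to the left, whereas the VEGF genes lie to the right.

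Epithelial genes fell and mesenchymal genes rose. Of 18 epithelial genes 15 fell (median -3.50), and of 18 mesenchymal genes 10 rose and 1 fell (median 2.19). Cdh1, which encodes E-cadherin, stood at 1927 and 2004 CPM in ES and 48.8 and 14.6 CPM in HB (-5.96 ± 0.83, adjusted p = 0.000279). The HB replicates differed from each other, and both were far under the ES libraries. Epcam, an epithelial adhesion molecule, stood at 276 and 286 CPM in ES and 23.6 and 17.8 CPM in HB (-3.77 ± 0.49, adjusted p = 0.000178). The tight junction genes Cldn4 (292 to 3.77 mean CPM), Cldn6 (149.6 to 5.19) and Cldn7 (52.5 to 2.77), the epithelial transcription factor Grhl2 (45.6 to 4.85) and the splicing regulator Esrp1 (75.6 to 13.2) fell, whereas Krt8 (127 to 113) and Tjp1 (236 to 274) were not called. Of the repressors of E-cadherin, Snai1 stood at 2.43 and 2.67 CPM in ES and 57 and 58.6 CPM in HB (4.5 ± 0.24, adjusted p = 8.33e-07) and Zeb2 at 3.3 and 2.96 CPM in ES and 129 and 142 CPM in HB (5.43 ± 0.19, adjusted p = 1.26e-07). Zeb1 (11.5 to 53.3) and Twist1 (2.04 to 12.1) rose as well, whereas Snai2 was not called (0.512 to 0.497). Vim (75.1 to 584) and Fn1 (2793 to 8936), the intermediate filament and the matrix protein of mesenchyme, rose, and Thbs1, another matrix protein of the list, fell from 255 to 5.83 mean CPM.

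SNAI and ZEB proteins are known to bind the E-box CACCTG, which was searched on both strands of the same 300-base promoters. It was present in 18.3% of all tested protein-coding promoters, 14.8% of those of risen genes and 26.9% of those of fallen genes. Promoters were in the table for 12 of the 18 epithelial genes, and 10 of these 12 held the motif, including 8 of the 9 that fell. The promoters of Epcam, Cldn6 and Cldn4 are printed because each holds 2 copies, shown in capitals as CACCTG or, for the opposite strand, CAGGTG:
Epcam: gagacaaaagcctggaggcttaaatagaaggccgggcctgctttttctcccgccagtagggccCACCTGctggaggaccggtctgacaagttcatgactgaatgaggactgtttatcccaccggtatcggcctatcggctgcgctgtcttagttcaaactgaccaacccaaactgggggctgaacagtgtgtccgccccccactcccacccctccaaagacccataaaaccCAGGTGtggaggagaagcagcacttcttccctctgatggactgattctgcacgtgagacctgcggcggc
Cldn6: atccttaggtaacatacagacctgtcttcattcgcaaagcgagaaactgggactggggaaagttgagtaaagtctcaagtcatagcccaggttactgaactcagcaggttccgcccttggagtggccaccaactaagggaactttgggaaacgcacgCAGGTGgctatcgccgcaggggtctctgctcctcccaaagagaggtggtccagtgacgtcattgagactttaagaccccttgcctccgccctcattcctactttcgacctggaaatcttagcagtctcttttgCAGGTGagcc
Cldn4: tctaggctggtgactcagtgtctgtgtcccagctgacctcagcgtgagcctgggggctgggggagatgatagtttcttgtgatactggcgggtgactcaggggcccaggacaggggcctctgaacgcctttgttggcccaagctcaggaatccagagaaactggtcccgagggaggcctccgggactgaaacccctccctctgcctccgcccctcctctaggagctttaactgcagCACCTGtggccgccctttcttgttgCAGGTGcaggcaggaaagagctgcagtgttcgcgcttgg
They lie at chr17:87635729-87636028 (Epcam, plus strand), chr17:23679115-23679414 (Cldn6, plus strand) and chr5:134946885-134947184 (Cldn4, minus strand) in GRCm38.p6. In Epcam the first bases of the 2 copies lie at -187 and -19 relative to the start, in Cldn6 at -93 and 41, and in Cldn4 at -14 and 12. A match describes the letters of a window only, and binding was not measured. The E-box shares were not adjusted for the base composition of the promoters, which also differed between risen and fallen genes (median GC 62.0% and 58.7%).

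Cadherin and matrix genes moved in both directions. Of 18 tested cadherins 9 rose and 6 fell. Cdh11 stood at 0.532 and 0.545 CPM in ES and 227 and 272 CPM in HB (8.85 ± 0.54, adjusted p = 1.56e-06) and Cdh2, which encodes N-cadherin, at 16.2 and 18.9 CPM in ES and 272 and 307 CPM in HB (4.05 ± 0.36, adjusted p = 1.46e-05). Cdh4 (3.95 to 60.8 mean CPM) and Cdh6 (0.285 to 19) rose with them, and Cdh3, the P-cadherin gene, fell (209 to 4.74). Of 56 tested protocadherins 14 rose (median 1.00). A fragment on several genes was counted on each, so that the counts of protocadherin genes that overlap are not independent. Laminin genes fell in 6 of 11 cases and rose in 3. Lamc1, the shared gamma chain of most laminins, stood at 1274 and 1332 CPM in ES and 154 and 165 CPM in HB (-3.03 ± 0.16, adjusted p = 7.9e-07), and Lama5 (1355 to 225), Lama1 (229.8 to 44.4) and Lamb1 (506 to 212) fell with it. Lama4, the chain of vascular laminin, rose from 4.67 to 52.2. Collagen IV, the other network of basement membranes, went up: Col4a1 stood at 148 and 161 CPM in ES and 618 and 727 CPM in HB (2.12 ± 0.41, adjusted p = 0.00226), and Col4a2 rose from 71.7 to 393. Over 41 collagens 15 rose and 10 fell, with Col18a1 (1230 to 256) and Col2a1 (45.8 to 3.15) among the latter and Col14a1 (0.569 to 25.6) and Col23a1 (1.08 to 51.2) among the former. The integrin genes Itga3 (238 to 12.2), Itga6 (399.6 to 172) and Itgb4 (24.1 to 1.89), which encode laminin receptors, fell, whereas Itga5, the fibronectin receptor chain (170.0 to 155), and Itgb1 (817 to 550.4) were not called. When 1 library was left out, fallen cadherins numbered 3 without ES replicate 1 or HB replicate 2, risen protocadherins 9 without ES replicate 1, and risen laminin genes 1 without any one of the 4.

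Guidance receptors changed in both directions. Of 31 semaphorins, plexins and neuropilins 12 rose and 11 fell. Plxnd1, an endothelial plexin, stood at 10.2 and 10.3 CPM in ES and 222 and 207 CPM in HB (4.39 ± 0.26, adjusted p = 1.32e-06), and Plxna4 (1.44 to 159 mean CPM), Sema3a (0.414 to 52.9) and Sema6d (0.396 to 35.8) rose with it. Sema4b (256 to 20.2) and Sema4d (104 to 10.3) fell. Of 21 Eph receptors and ephrins 5 rose and 6 fell. Epha2, a receptor abundant in ES cells, stood at 454 and 472 CPM in ES and 28.5 and 18.4 CPM in HB (-4.3 ± 0.46, adjusted p = 5.18e-05), and Epha4 (172 to 39.8) fell with it, whereas the ligand genes Efnb2 (37.9 to 219) and Efnb3 (4.21 to 51.9) rose and Ephb4 (119 to 146) was not called.

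**Figure D3:**
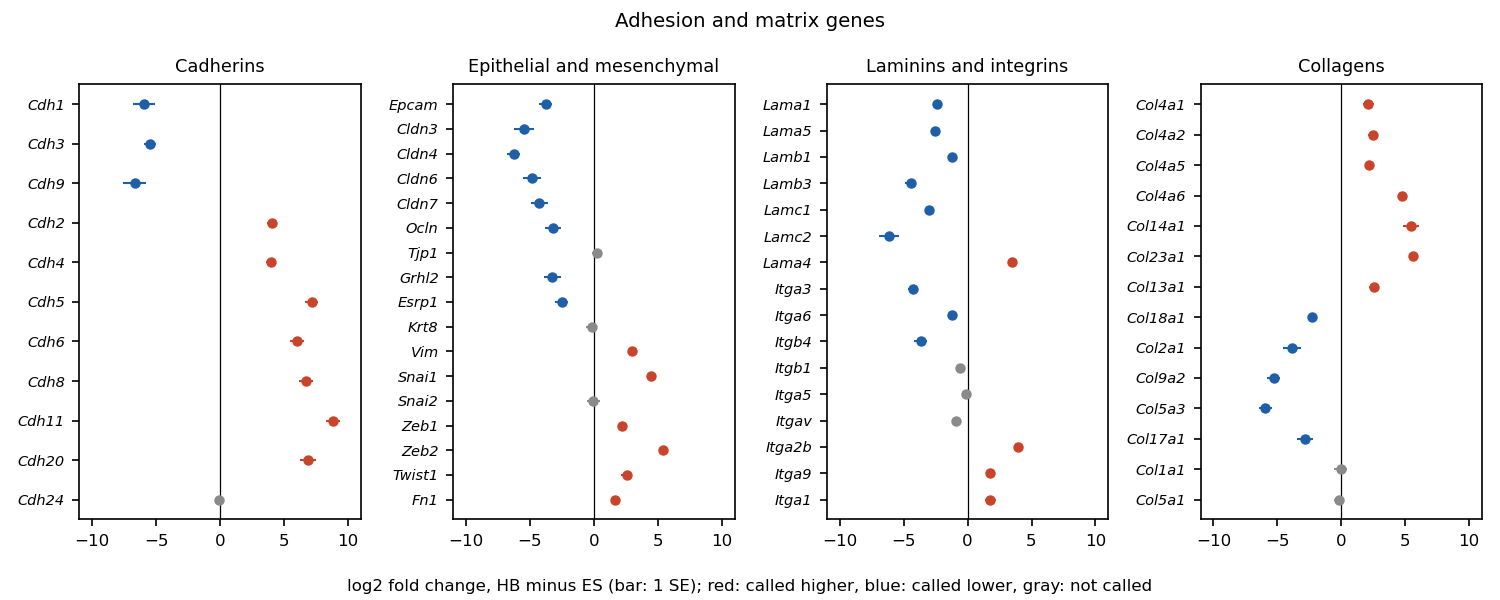
Log2 fold change of HB minus ES for 58 adhesion and matrix genes, with bars of 1 SE, in red where called higher, blue where called lower and gray where not called. Cdh1, claudins and most laminin chains lie to the left, and Cdh2, Cdh11 and the collagen IV chains lie to the right.

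Of 14 genes of DNA methylation 4 fell and 1 rose. Dnmt3l, the cofactor of the de novo methyltransferases, stood at 168 and 156 CPM in ES and 3.87 and 1.01 CPM in HB (-6.07 ± 0.98, adjusted p = 0.000736). Tet1, which oxidizes methylcytosine, stood at 1674 and 1767 CPM in ES and 183 and 154 CPM in HB (-3.35 ± 0.20, adjusted p = 1.57e-06). Tet2 fell from 268 to 92.7 mean CPM and Tet3 rose from 38 to 83, so that the 3 Tet genes did not move together. The methyltransferase genes Dnmt1 (455 to 399), Dnmt3a (158 to 191) and Dnmt3b (269.8 to 196) were not called. Among 27 Polycomb genes 8 fell and 5 rose. Cbx7, the chromobox subunit typical of ES cells, stood at 289 and 286 CPM in ES and 42.9 and 25.5 CPM in HB (-3.07 ± 0.45, adjusted p = 0.00039), and Cbx8 (0.986 to 3.42) rose. Phc1 fell (516 to 91.5) and Phc2 rose (30.8 to 97.4), which are paralogs in the same complex. The catalytic subunit genes Ezh2 (149 to 159) and Rnf2 (77.3 to 97.3) were not called.

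Germline genes, many of which are kept silent by promoter methylation in somatic cells, fell in 25 of 29 tested cases (median -4.42, or -4.25 with a stage at 0 counts set to the floor). Tdrd12, of the piRNA pathway, stood at 75.3 and 75.6 CPM in ES and 1.65 and 0.394 CPM in HB (-6.23 ± 0.62, adjusted p = 3.17e-05). Hormad1 (9.63 to 0.0447 mean CPM), Sohlh2 (16.7 to 0.224) and Dazl (5.77 to 0.172) fell too. Genes of the 2-cell-like state, which a small share of ES cells enters, fell in 15 of 17 cases (median -7.88, or -5.0 with the floor of 3 counts per library, since 8 had no count in HB). Zscan4a stood at 11 and 13.6 CPM in ES and 0.0992 and 0 CPM in HB, and Zscan4d at 7.56 and 8.46 CPM in ES and 0.0331 and 0.0282 CPM in HB. Copies of these families are nearly identical, so that the split of reads between them is uncertain. Of 34 Rhox genes, an X-linked homeobox cluster, 29 had too few counts to be tested, and the 5 tested ones fell, among them Rhox5 (24.2 to 1.0) and Rhox9 (7.26 to 0.125). Of 31 Mage and Xlr genes 12 were not tested, 13 fell and 3 rose. Genes that pass the filter through their level in ES had to be higher there, so that these counts describe the tested genes only.

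Imprinted genes rose in 13 of 30 tested cases and fell in 2 (median 0.62). Igf2, a fetal growth factor, stood at 41.9 and 47.7 CPM in ES and 681 and 807 CPM in HB (4.05 ± 0.50, adjusted p = 0.000134). H19, the noncoding RNA next to it, stood at 27.8 and 29.5 CPM in ES and 375 and 471 CPM in HB (3.88 ± 0.26, adjusted p = 2.79e-06). Peg3, a zinc finger factor, stood at 206 and 213 CPM in ES and 2111 and 2480 CPM in HB (3.45 ± 0.44, adjusted p = 0.00016). The rises covered both paternally expressed genes (Igf2, Peg3 and Mest, 244 to 882 mean CPM) and maternally expressed ones (H19 and Grb10, 58.1 to 245), whereas Meg3 (306 to 240.1), Rian (489 to 379.8), Kcnq1ot1 (152 to 166) and Igf2r (452 to 293) were not called. Alleles were not told apart in these counts. Fallen imprinted genes numbered 0 without either ES replicate and 1 without either HB replicate.

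Among metabolic genes, single enzymes and transporters changed strongly. In amino acid metabolism 8 of 17 fell (median -0.89). Tdh, the threonine dehydrogenase on which mouse ES cells depend, stood at 337 and 333 CPM in ES and 5.09 and 1.13 CPM in HB (-6.77 ± 0.85, adjusted p = 0.000144). Slc7a3, a transporter of arginine and lysine, stood at 508 and 528 CPM in ES and 8.1 and 4.25 CPM in HB (-6.39 ± 0.55, adjusted p = 1.27e-05). Gldc, of glycine cleavage, fell from 473 to 72 mean CPM. Among 301 solute carriers 105 fell (34.9%) and 35 rose (11.6%). Glycolytic genes rose in 6 of 24 cases and fell in 2 (median 0.64). Ldha stood at 635 and 620.0 CPM in ES and 1787 and 2171 CPM in HB (1.66 ± 0.21, adjusted p = 0.000147), and Tpi1 (224 to 726), Pfkl (215 to 593) and Aldoc (8.13 to 53.2) rose, whereas the glucose transporter gene Slc2a3 fell (2019 to 699) and Gapdh (204 to 217), Hk2 (336 to 395) and Pkm (1954 to 3387) were not called. Cholesterol synthesis had 2 of 23 higher and 1 lower. Only 1 glycolytic gene fell without either HB replicate.

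Of 18 cell cycle genes 2 rose and 4 fell. Ccnd2, a D cyclin, stood at 9.12 and 11 CPM in ES and 136 and 167 CPM in HB (3.92 ± 0.22, adjusted p = 1.14e-06), whereas Ccnd1 (124 to 162 mean CPM) and Ccnd3 (141 to 122) were not called. Ccne1 fell (171 to 45.8), as did the inhibitor gene Cdkn2a (11.6 to 1.79). Myc rose from 30.9 to 143 (2.21 ± 0.25) and Mycn was not called (168 to 142). Hmga2, a let-7 target, stood at 60.1 and 60.5 CPM in ES and 461 and 484 CPM in HB (2.97 ± 0.29, adjusted p = 2.9e-05). Of 41 replication genes 1 rose and 2 fell, and of 86 tested cytosolic ribosomal protein genes 2 fell. None of 30 SR and hnRNP splicing factor genes was called by edgeR's quasi-likelihood test, where 8 had an unadjusted p under 0.05, 0 was called by limma-voom and 0 by DESeq2. Fallen cytosolic ribosomal protein genes numbered 6 without HB replicate 2.

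**Figure D4:**
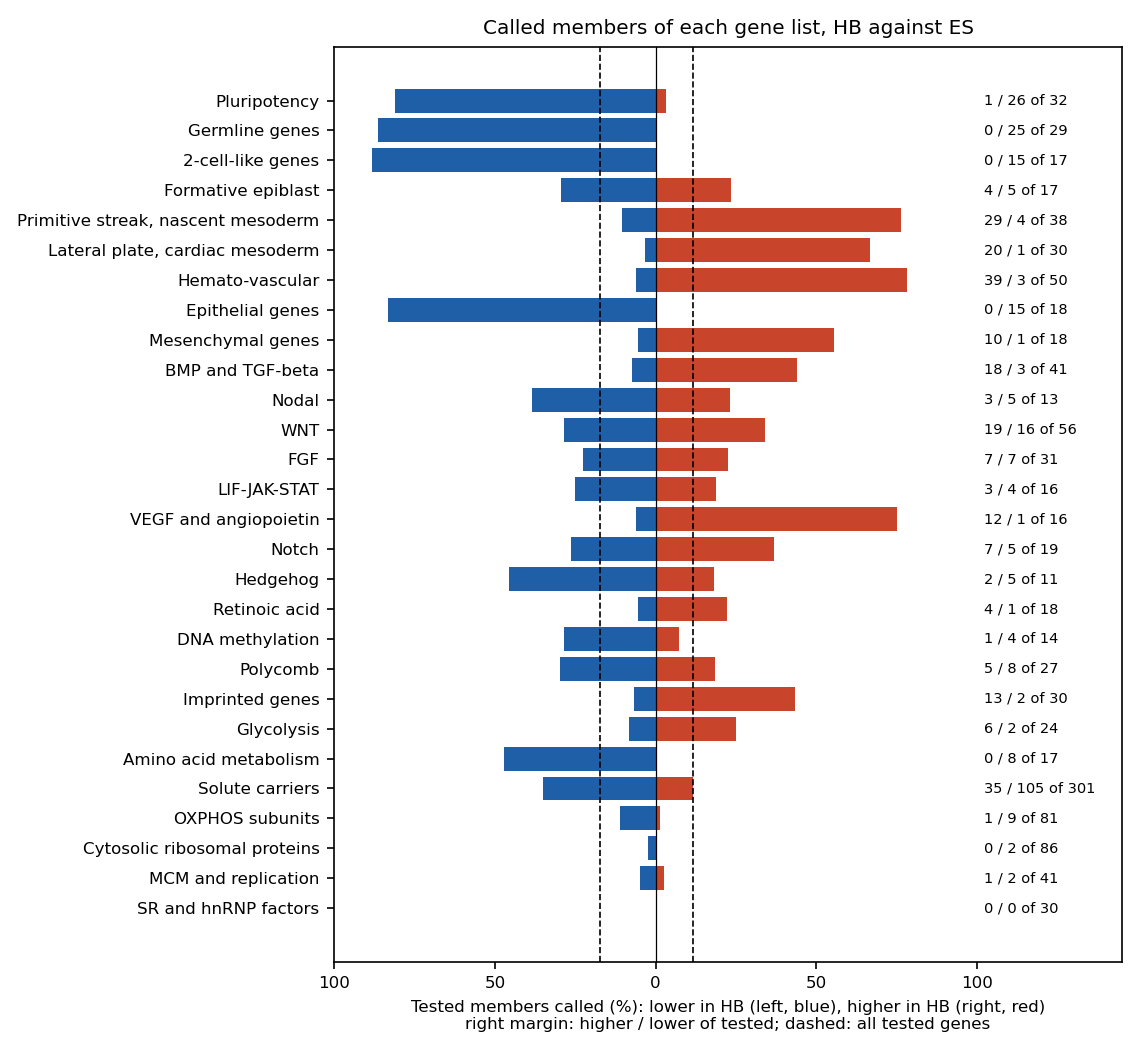
Percentage of the tested members of each gene list called lower (blue, to the left) or higher (red, to the right) in HB, with dashed lines at 17.3% lower and 11.5% higher for all tested genes, and counts in the right margin. Pluripotency, germline, 2-cell-like and epithelial genes extend to the left, the mesoderm, hemato-vascular and VEGF lists extend to the right, and the splicing, replication and ribosomal lists stay near 0.

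Transcription factor families were used in part. Of 6 tested GATA genes 5 rose, of 13 T-box genes 8 rose and 2 fell, and of 9 MEIS and PBX genes 6 rose and 1 fell, with Meis2 (1.65 to 16.5 mean CPM) among the risen. Of 16 KLF genes 5 fell and 1 rose; Klf3 (138 to 32.2) and Klf9 (255 to 52.3) fell beside the naive factors. Of 39 HOX genes 25 were tested, 12 rose and 4 fell, but levels were low: Hoxb2 reached 8.31 mean CPM, Hoxb3 4.20, Hoxb4 3.87 and Hoxb1 2.88. Genes low in every stage but HB, such as Hoxb1, passed the filter through HB and had to be higher there. The HOX counts therefore describe the tested genes only. Hoxb5 had no count in ES and 1.11 mean CPM in HB, and the 2 genes among the 4 fallen with the highest ES level were Hoxc13 (2.48 to 0.118) and Hoxd13 (2.24 to 0.565). The call of Hoxd13 was lost without either ES or either HB replicate (adjusted p up to 0.12). Several of these counts moved when 1 library was left out: 7 HOX genes rose without ES replicate 1 and 2 fell without HB replicate 1, 3 Rhox genes fell without ES replicate 1 or HB replicate 2, 1 T-box gene fell without ES replicate 1 or HB replicate 1, no KLF gene rose without ES replicate 2, and no MEIS or PBX gene fell without any one of the 4.

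The 10 largest fitted rises among protein-coding genes with at least 10 CPM were, in alphabetical order, those of Asb4, Bmp5, Cdh11, Gata6, Hand2, Kdr, Lhx1, Mesp1, Pkhd1l1 and Prdm6. Asb4, an E3 ligase subunit of vascular lineages, stood at 0.461 and 0.344 CPM in ES and 211 and 276 CPM in HB, and Pkhd1l1 at 0.106 and 0.0861 CPM in ES and 43.2 and 41.9 CPM in HB. The 10 largest fitted falls were those of Acsbg3, Calcoco2, Clca3b, Gpa33, Krt42, Msln, Sgo2b, Slc28a1, Spp1 and Tcl1, likewise in alphabetical order. Prdm6, Hand2, Pkhd1l1 and Bmp5 had at most 3 counts in 1 or both ES libraries, and Krt42, Acsbg3, Msln, Sgo2b, Calcoco2, Clca3b, Tcl1 and Slc28a1 had at most 3 in 1 or both HB libraries, so that their fitted sizes, and with them their place among the 10, depend on the prior count of the fit and are no bounds. Spp1, which encodes osteopontin, stood at 414 and 426 CPM in ES and 1.06 and 0.507 CPM in HB (-9.09 ± 0.65, adjusted p = 4.05e-06), and Gpa33, a surface glycoprotein, at 106 and 109 CPM in ES and 0.397 and 0.141 CPM in HB. Among long noncoding genes Gm45889, Hand2os1 and Evx1os had the largest fitted rises, of which Hand2os1 and Evx1os are named for Hand2 and Evx1, which also rose, and Gm46332, Eprn and C78283 the largest fitted falls, with 0 counts of Gm46332 in HB and 847 and 465 in ES, at least 154-fold lower against a floor of 3 counts in each HB library. Gm45889 and Hand2os1 had at most 3 counts in each ES library and Eprn and C78283 at most 3 in each HB library, so that their fitted sizes are no bounds either.

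In absolute terms the largest gains were those of Fn1 (2709 and 2877 CPM in ES and 8175 and 9697 CPM in HB), Peg3, Amot (44.3 and 44 CPM in ES and 1630 and 2075 CPM in HB), Ldha and the rRNA gene CT010467.1. Amot, an angiomotin that binds YAP and junctional proteins, rose by 5.39 ± 0.30 (adjusted p = 1.06e-06). The counts of CT010467.1 were left after rRNA depletion and differed between the HB libraries (1565 and 1031 CPM in ES and 7185 and 2146 CPM in HB). Its call was lost without ES replicate 1, ES replicate 2 or HB replicate 1 (log2 2.18, 1.59 and 0.75) and was not made by limma-voom or DESeq2 (adjusted p = 0.051 and 0.056). The largest losses were those of Malat1, a nuclear noncoding RNA (9947 and 10240 CPM in ES and 4296 and 3863 CPM in HB), the actin crosslinker Flna (3119 and 3302 CPM in ES and 1087 and 1135 CPM in HB), Cdh1, the atypical cadherin Fat1 (2374 and 2519 CPM in ES and 530.1 and 535 CPM in HB) and Tet1. The call of Malat1 was lost when any single library of the 4 was left out, with adjusted p-values up to 0.12.

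Markers of other cell types were read in the same libraries. Blood markers summed to 12.5 and 10.9 CPM in ES and 80.4 and 67.9 CPM in HB, with Itga2b the largest in HB. Of 17 tested blood markers 7 rose and 2 fell: Alas2 (0.0376 to 4.05 mean CPM), Hbb-bh1 (0.956 to 4.57), Epor (3.79 to 11.7), Mpo (0.0929 to 2.67), Spi1, Gata1 and Itga2b rose, and the leukocyte genes Ptprc (0.528 to 0.0141) and Itgam (0.466 to 0.0141) fell. Mpo was not called by limma-voom (adjusted p = 0.0692). The adult globin genes Hba-a1 and Hba-a2 had at most 2 counts in an HB library. Neuroectoderm markers summed to 189 and 211 CPM in ES and 65.9 and 60.5 in HB, with 1 of 8 tested higher and 5 lower and Pax6 at 0.127 mean CPM in HB. Visceral and parietal endoderm markers summed to 1330 and 1410 CPM in ES and 1980 and 2230 in HB, trophoblast markers to 72.6 and 73.0 in ES and 120 and 150 in HB, and endothelial markers to 264 and 268 in ES and 512 and 444 in HB. Germ cell markers stood at 311 and 321 summed CPM in ES and 98.3 and 91.7 in HB, and paraxial mesoderm markers at 31.9 and 31.2 in ES and 15.2 and 16.3 in HB. Endoderm markers summed to 669 and 673 CPM in ES and 341 and 351 CPM in HB. Of 12 tested 6 rose and 1 fell, the latter being Trh (655 to 18.2), a hormone precursor gene, and the risen ones included Cxcr4 (2.52 to 85.9 mean CPM), Gata6 and Sox17, which mesoderm also expresses, and Foxa2, the defining endoderm factor, stood at 0.0887 and 0.0574 CPM in ES and 2.58 and 0.817 CPM in HB (4.42 ± 0.82). Of 27 immediate early and stress genes 9 rose and 3 fell: Fos (6.36 to 102), Fosb (5.24 to 85.9) and Jun (30.4 to 359) rose, and Egr1 (67.9 to 88), Ier2 (106 to 98.5) and Dusp1 (51.3 to 59.5) were not called. HB cells were dissociated and passed over the column, and the part of handling in these genes was not tested. None of the 37 genes encoded by mitochondrial DNA had a count in the tables. In the same lists, left-out libraries moved the counts as follows: no neuroectoderm marker rose without ES replicate 1 and 3 fell without either HB replicate, 2 endoderm markers fell without HB replicate 1, and 1 immediate early or stress gene fell without HB replicate 2.

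Levels in the other 3 stages placed these changes along the route. HE1 and HE2 are 2 sorted stages of hemogenic endothelium and HP are hematopoietic progenitors. In the study, all 3 came from HB cells after a further blast culture with serum, VEGF, an interleukin and conditioned medium. They were sorted as KIT+, HE1 and HE2 also as TIE2+, and HE2 and HP as CD41+. Of the 2601 risen genes, 1058 were highest on average in HB, and the highest mean was that of HE1 for 888, of HE2 for 261 and of HP for 394. Of the 3906 fallen genes, 3433 were highest in ES, and HE1 had the highest mean for 224, HE2 for 45 and HP for 204. Eomes went from 588 mean CPM in HB to 8.2 in HE1, and Mesp1 from 76.5 to 0.125, whereas Kdr stood at 1120 in HB and 992 in HE1. Pecam1 and Kit, which fell from ES to HB, stood at 618 and 109.6 mean CPM in HE1 and at 228 and 307 in HP. The Kit levels after HB follow from the KIT sort, which HB cells did not undergo, and are given as a description.

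**Figure D5:**
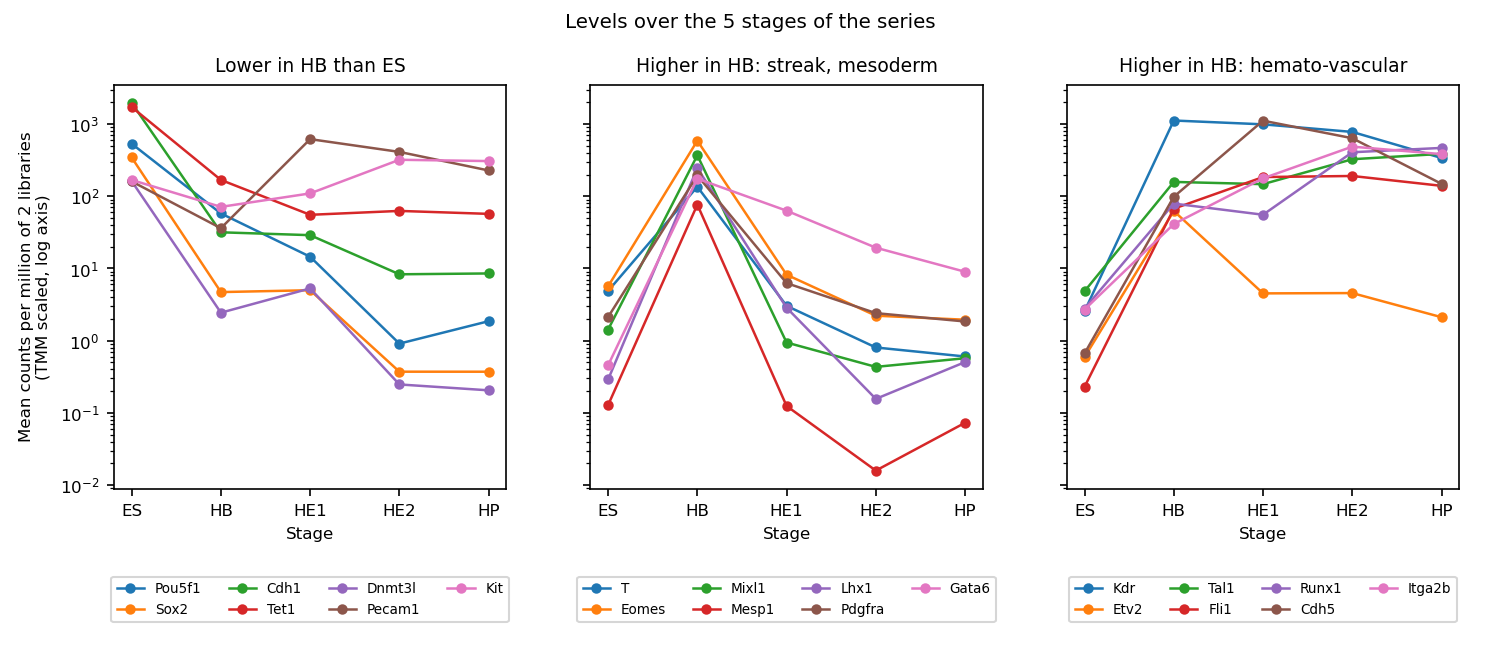
Mean CPM of 21 genes at the 5 stages on a log axis, each point the mean of 2 libraries, with no error shown. Streak genes such as Eomes and Mesp1 peak in HB, Pou5f1 and Cdh1 descend from ES, Pecam1 and Kit dip in HB, and Kdr, Tal1 and Fli1 stay high after HB. The stages after HB were sorted as KIT+ and on the presence or absence of CD41 (Itga2b), so that their Kit and Itga2b levels follow from the sorts.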

How the data were processed

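Nuclear RNA-seq counts of 2 ES and 2 HB libraries were compared, with the libraries of the other 3 stages kept in the model. The authors depleted rRNA reads with RiboDetector, trimmed with Trimmomatic, aligned with HISAT2 v2.2.1 to the mm10 build and assigned fragments to Ensembl exons with featureCounts v2.0.1. Per the file headers the counting was reverse stranded, and a fragment on several genes was counted on each. These deposited counts cover 55487 genes and are not normalized. The authors also deposited a matrix with 1 averaged expression score per stage for 15686 genes, from which only gene IDs and symbols were taken. Symbols of 39471 more genes came from a reference table, and biotypes of 55141 from GENCODE M21.

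The main test was the quasi-likelihood test of edgeR v4.0.16 (R v4.3.3) after filterByExpr by stage, which left 22596 genes, and TMM scaling. Stage was the sole model term, all 10 libraries entered (5 residual degrees of freedom), and Benjamini-Hochberg adjustment covered every gene tested. CPM are TMM scaled, and log2 fold changes are HB minus ES with their SE. The SE was derived as the size of the log2 change divided by the square root of the test's F statistic. It can understate the error of genes with only a few counts in a stage. The ES and HB libraries held 29055246 to 58782055 counts, and the floor of 3 counts covers counting error only. Replicates differed by more than counting noise (chi-square 2.99 per degree of freedom for ES, 26.2 for HB), so that all libraries were counted separately. On simulated counts for HB against ES (22596 genes, 200 of them shifted by 2 in log2), 70.0% of the shifted genes were called by edgeR and 5 calls (3.45%) were false. The simulation used the trended dispersion without gene-specific spread and far fewer changed genes than were called here. Its rates describe that setting only.

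Genes were named as members of 72 gene lists, as the 10 protein-coding and 3 long noncoding genes with the largest rise and fall among called genes of at least 10 CPM in the higher stage and without overlap of libraries, or as the 5 with the largest gain and loss in CPM. Hprt and the Y-linked genes were chosen after their values were seen. The members and lists were chosen with earlier results of these data known. Promoters of 300 bases (RefSeq, GRCm38.p6) were matched by symbol, chromosome and strand, taking the one nearest to the Ensembl start. The alternatives were limma-voom v3.58.1, DESeq2 v1.42.0, other scalings, other gene filters, fewer libraries, a replicate term and other fold thresholds.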

Additional observations from a re-analysis of the deposited data

How the results depend on the processing

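In the fit of all 10 libraries 2601 genes rose and 3906 fell. Risen genes numbered 1394 with a 4-fold threshold and 4020 with none, which follows from the threshold itself. Under the other alternatives both counts stayed within 1.5 times, with risen and fallen genes at 2601 and 4133 with limma-voom, 2502 and 3493 with DESeq2, 2730 and 3565 with total counts, which moved the median of all genes by 0.08, 2909 and 4347 without a filter on low counts, 2091 and 2872 over the genes of the authors' matrix, and 3069 and 4392 with only the 4 ES and HB libraries. Leaving out 1 library at a time gave 1896 to 2161 risen and 2827 to 3158 fallen genes. The labels tie the replicate numbers to no shared culture or day, and the deviations of same-numbered ES and HB libraries did not go together (r = -0.067 across 9859 genes, which are not independent). With the replicate block the counts were 2430 and 3710, and no named gene changed its call, while the counts of fallen VEGF genes and of risen claudins moved by over 1.5 times. Over all lists and alternatives, 187 of 2130 counts of called members moved by over 1.5 times, 83 of them on leaving out 1 library and 74 with another fold threshold, and 52 of 923 list medians moved by 0.25 or more. Of the medians of whole lists given above, 5 moved by that much, and medians of parts of a list were not followed. That of the 2-cell-like genes was -6.27 with limma-voom, -7.61 with DESeq2 and -8.65 without HB replicate 1, that of the germline genes was -5.06 without HB replicate 1 and -3.80 without HB replicate 2, that of the imprinted genes was 1.24 over the genes of the authors' matrix and 0.36 with only the 4 ES and HB libraries, that of the pluripotency genes was -4.09 without HB replicate 2, and that of the lateral plate and cardiac genes was 3.35 with only the 4 ES and HB libraries. Calls shared by edgeR, limma-voom and DESeq2 covered 2329 risen and 3381 fallen genes. Of 318 named genes, 260 were called, and 13 of these lost the call in at least 1 alternative other than the 4-fold threshold, namely Pou5f1, Klf4, Tbx3, Pou3f1, Cdx2, Kit, Hoxd13, Malat1, Mpo, CT010467.1, Ddx3y, Eif2s3y and Uty. The sign changed in 10 named genes, none of them called. Their log2 changes are given for all libraries and then for the alternative. Cdx4 stood at -0.24, and at -1.08 to 0.28 with 1 library left out. Dusp1 stood at 0.21, and at -0.08 to 0.47 with 1 library left out. Ezh2 stood at 0.1, and at -0.0 to 0.21 with 1 library left out. Fgfr1 stood at -0.05, and at 0.03 with total counts, -0.1 to 0.01 with 1 library left out. Hba-a1 stood at -0.77, and at -4.02 to 0.08 with 1 library left out. Kcnq1ot1 stood at 0.13, and at -0.48 to 0.58 with 1 library left out. Klf1 stood at -0.17, and at -0.47 to 0.37 with 1 library left out. Otx2 stood at -0.04, and at 0.04 with total counts, -0.14 to 0.08 with 1 library left out. Smad7 stood at -0.06, and at 0.02 with total counts. Snai2 stood at -0.03, and at 0.04 with total counts, 0.0 with only the 4 ES and HB libraries, -0.24 to 0.17 with 1 library left out. The cause was not tested. With 2 libraries per stage precision is low, and HB replicates lay further apart than ES replicates.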

Other observations

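Among 1322 tested genes of the biotype TEC, which are transcripts still to be experimentally verified, 182 were higher in HB (13.8%) and 62 lower (4.69%), whereas 296 of 2095 tested pseudogenes were lower (14.1%) and 79 higher (3.77%). Long noncoding genes were lower in 445 of 2183 cases (20.4%) and higher in 228 (10.4%). Of 72 tested potassium channel genes 26 fell and 16 rose, and of 18 ADAMTS proteases 10 rose and 5 fell, among them Adamts1 (8.74 to 43.9 mean CPM) and Adamts3 (2.14 to 50.6), which rose, and Adamts14 (34.6 to 3.43), which fell. Promoters of risen and fallen protein-coding genes held the ETS motif CCGGAAGT, searched on both strands, in 2.83% and 3.30% of cases. The share was 7.28% over all tested protein-coding promoters and 9.08% for genes that were not called. Risen ADAMTS genes numbered 6 without ES replicate 2, and fallen potassium channel genes 17 without HB replicate 1 and 14 without HB replicate 2.

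Further lists were counted in the same way. Of 24 ETS genes 10 rose and 3 fell, of 18 SOX genes 6 rose and 4 fell, and of 35 FOX genes 10 rose and 8 fell. Of 382 ZFP zinc finger genes 38 rose and 56 fell. LIM homeobox genes had 2 of 8 higher and 2 lower, ZIC genes 1 of 3 each way, and CDX genes 1 of 3 higher. Among 13 endothelial markers 8 rose and 1 fell, among 13 markers of visceral and parietal endoderm 6 rose and 5 fell, among 7 of trophoblast 3 rose and 2 fell, among 7 of paraxial mesoderm 2 rose and 3 fell, and 7 of 8 germ cell markers fell. The MYC network had 4 of 18 higher and 2 lower, the TEAD-YAP pathway 3 of 14 and 2, the retinoic acid pathway 4 of 18 and 1, and nuclear-retained RNAs 1 of 13 and 2. Claudins fell in 7 of 13 cases and rose in 2, keratins fell in 7 of 16 and rose in 1, and integrins fell in 7 of 25 and rose in 5. Of 67 replication-dependent histone genes 6 rose and 1 fell. Genes of OXPHOS subunits fell in 9 of 81 cases and rose in 1, and 1 of 78 mitochondrial ribosomal protein genes fell, while 1 of 38 proteasome subunit genes rose and 1 fell. Leaving out 1 library moved some of these counts by over 1.5 times. The CDX count rests on Cdx2, which was not called without ES replicate 2 or HB replicate 1. The risen ZIC gene and the risen proteasome gene were not called without any one of the 4 libraries, and the fallen ZIC gene was not called without HB replicate 2. Paraxial markers that rose numbered 1 without either ES replicate, and those that fell 1 without ES replicate 1 or HB replicate 1. Nuclear-retained RNAs that fell numbered 1 without any one library. Claudins that rose numbered 1 without ES replicate 1 and 0 without any other library, and keratins that fell 4 without either HB replicate. Histone genes that rose numbered 2 without ES replicate 2, 10 without HB replicate 1 and 3 without HB replicate 2, and those that fell 2 without HB replicate 1 and 0 without HB replicate 2. The fallen mitochondrial ribosomal protein gene was not called without ES replicate 2 or HB replicate 1.

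Medians by chromosome were computed without a test. Among genes with at least 10 CPM in both stages, the median log2 change was -0.22 over 301 genes of the X chromosome and 0.26 over 775 genes of chromosome 11, and between -0.11 and 0.12 on the other chromosomes with at least 30 such genes. On the Y chromosome, Ddx3y stood at 2.62 and 2.24 CPM in ES and 7.34 and 7.72 CPM in HB (1.62 ± 0.52, adjusted p = 0.0283), Eif2s3y at 2.61 and 3.36 CPM in ES and 8.6 and 8.25 CPM in HB (1.5 ± 0.46, adjusted p = 0.0235) and Uty at 2.29 and 2.41 CPM in ES and 7.21 and 5.61 CPM in HB (1.45 ± 0.51, adjusted p = 0.0436). These 3 genes stood at 18.9, 14.3 and 15.3 mean CPM in HE1. They were chosen after their values were seen, and each call was lost when any single library was left out, with adjusted p-values up to 0.125, 0.136 and 0.17.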
